A study of Mus musculus with 23 samples.

Results

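The Sprouty, DUSP and ETV feedback genes are genes that growth factor signalling through the kinase ERK switches on and whose products, for the most part, then hold that signalling back. The 10 members were Spry1, Spry2, Spry4, Spred1, Spred2, Dusp4, Dusp5, Dusp6, Etv4 and Etv5, taken as every non-control probe whose RefSeq transcript belonged to one of these genes. All 10 were found among the 20145 genes named on the array, with 11 probes in all, since Etv4 had 2 probes and the others 1. They were measured in TM4 cells, an immortalized mouse Sertoli cell line, the Sertoli cell being the somatic cell that nurses germ cells in the seminiferous tubule. The cells were treated for 48 hr with 1% DMSO alone (4 arrays) or with 100 μM of one compound in 1% DMSO. The compounds were MEHP (mono(2-ethylhexyl) phthalate, the active metabolite of the plasticizer DEHP), DINCH (diisononyl cyclohexane-1,2-dicarboxylate, a commercial plasticizer), DOM (dioctyl maleate), BDB (1,4-butanediol dibenzoate) and DOS (dioctyl succinate), with 4 arrays each and 3 for DOS. Every group therefore carried the same vehicle and came from 1 cell line in culture, which limits it as a model of the testis, and the labels call the samples of a group biological replicates.

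ERK is the last kinase of the cascade that runs from receptor tyrosine kinases through RAS, RAF and MEK. Active ERK induces the Sprouty and Spred proteins, which restrain the cascade at the level of RAS and RAF, and the dual specificity phosphatases DUSP4, DUSP5 and DUSP6, which remove phosphate from ERK itself. It also induces ETV4 and ETV5, transcription factors of the ETS family that carry the signal on to further genes, and transcripts of these families are widely used as a readout of the pathway. In the testis, ETV5 of Sertoli cells is known for its part in maintaining spermatogonial stem cells.

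To place some of the members in their genomic context, the 250 bases upstream of the start of Spry1, Etv5 and Dusp6 are shown 5′ to 3′. They come from RefSeq promoters on GRCm38.p6, with each GGAA, the core of sites bound by ETS factors, or its reverse complement in capitals. Spry1 lies on the plus strand (chr3:37639697-37639946), Etv5 on the minus strand (chr16:22439571-22439820) and Dusp6 on the plus strand (chr10:99262981-99263230).
Spry1: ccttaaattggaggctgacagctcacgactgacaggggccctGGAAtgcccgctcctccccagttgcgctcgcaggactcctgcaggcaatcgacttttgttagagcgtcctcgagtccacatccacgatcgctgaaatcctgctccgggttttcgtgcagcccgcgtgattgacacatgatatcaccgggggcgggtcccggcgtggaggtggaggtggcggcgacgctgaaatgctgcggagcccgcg
Etv5: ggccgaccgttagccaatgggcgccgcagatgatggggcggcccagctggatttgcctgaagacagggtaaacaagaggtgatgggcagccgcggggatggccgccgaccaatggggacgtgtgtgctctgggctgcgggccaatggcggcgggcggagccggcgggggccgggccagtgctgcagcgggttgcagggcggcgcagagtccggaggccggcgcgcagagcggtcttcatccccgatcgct
Dusp6: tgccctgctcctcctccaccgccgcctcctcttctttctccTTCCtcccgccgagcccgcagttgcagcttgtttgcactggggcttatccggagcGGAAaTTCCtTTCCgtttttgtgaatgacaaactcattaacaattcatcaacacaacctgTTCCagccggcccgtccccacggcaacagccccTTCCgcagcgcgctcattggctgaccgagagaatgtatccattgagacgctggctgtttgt
The stretch of Spry1 held 1 match to GGAA and that of Dusp6 held 6, while that of Etv5 held 0 and a second start of Etv5 held 4. On both strands, 93.4% of all 32851 promoters of this length held GGAA, so that a match is common, and any CCGGAA contains a GGAA. The longer ETS motif CCGGAA was in 12% of all promoters and in 0 of the 8 that 7 members had in the table, where Spry4, Dusp4 and Etv4 were without an entry. The AP-1 motif TGANTCA was in 6.75% of all promoters and in 0 of these 8, and the CRE motif TGACGT was in 6.47% and in 2 of the 8, those of Spred2 and Dusp5. These matches describe letters in a short window and were not related to binding, and GGAA was added after the longer ETS motif had matched none of the members' promoters.

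The 23 arrays had a 75th percentile of signal between 204.6 and 350.7, and 43.4% to 52.2% of spots were well above background. No spot was saturated, and arrays of a group correlated with a median r of 0.9905 to 0.9963. Extraction metrics were out of range on 8 arrays. These were DINCH replicates 1 and 2, DOM replicates 3 and 4, DMSO replicate 4 and replicate 3 of MEHP, BDB and DOS. DOM replicate 3 had the most, with 3 metrics. Among Sertoli cell markers, Gata4, Inhbb, Dhh and Kitl were above background on all arrays, whereas Wt1, Fshr and Cldn11 were above it on none and Amh and Trf on 1 each. Dhh was called with DINCH and Sox9 and Inhbb with DOM. The germ cell markers Ddx4 and Dazl were above background on none, while the Leydig marker Cyp17a1, the myoid marker Acta2 and the macrophage marker Csf1r were above it on 23 arrays and none of them was called with any compound. The other markers of these cells were above it on fewer arrays, Cyp11a1, Myh11 and Adgre1 on 0, Des on 4 and Star on 12. The arrays lay on 3 slides. MEHP, BDB and DINCH lay in rows 1 and 3 of a slide and DMSO, DOM and DOS in rows 2 and 4, so row and compound cannot be told apart when MEHP, BDB or DINCH is compared with DMSO, or MEHP or DINCH with DOM.

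Levels are given as log2 signal relative to the 75th percentile of the array, so that 0 is the brightness of the spot at that percentile, and a difference of 1 is a 2-fold change. Levels of different probes are not comparable, so each gene was compared only with itself. Of the members 9 could be tested, meaning that, in at least 1 of both groups compared, no array had the probe near background or under its 20th percentile. Dusp5, the nuclear phosphatase of ERK, was above background on 9 of 23 arrays, on 3 of 4 with DMSO, 1 of 4 with MEHP, 0 of 4 with DINCH, 2 of 4 with DOM, 3 of 4 with BDB and 0 of 3 with DOS, and was not tested. A gene was called when a probe passed an adjusted p of 0.05 and a 1.5-fold change in limma's test. The Benjamini-Hochberg adjustment ran over all probes that could be tested in that comparison. The 4 DMSO arrays served as control for each of the 5 compounds, so these comparisons share their controls.

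**Figure D1:**
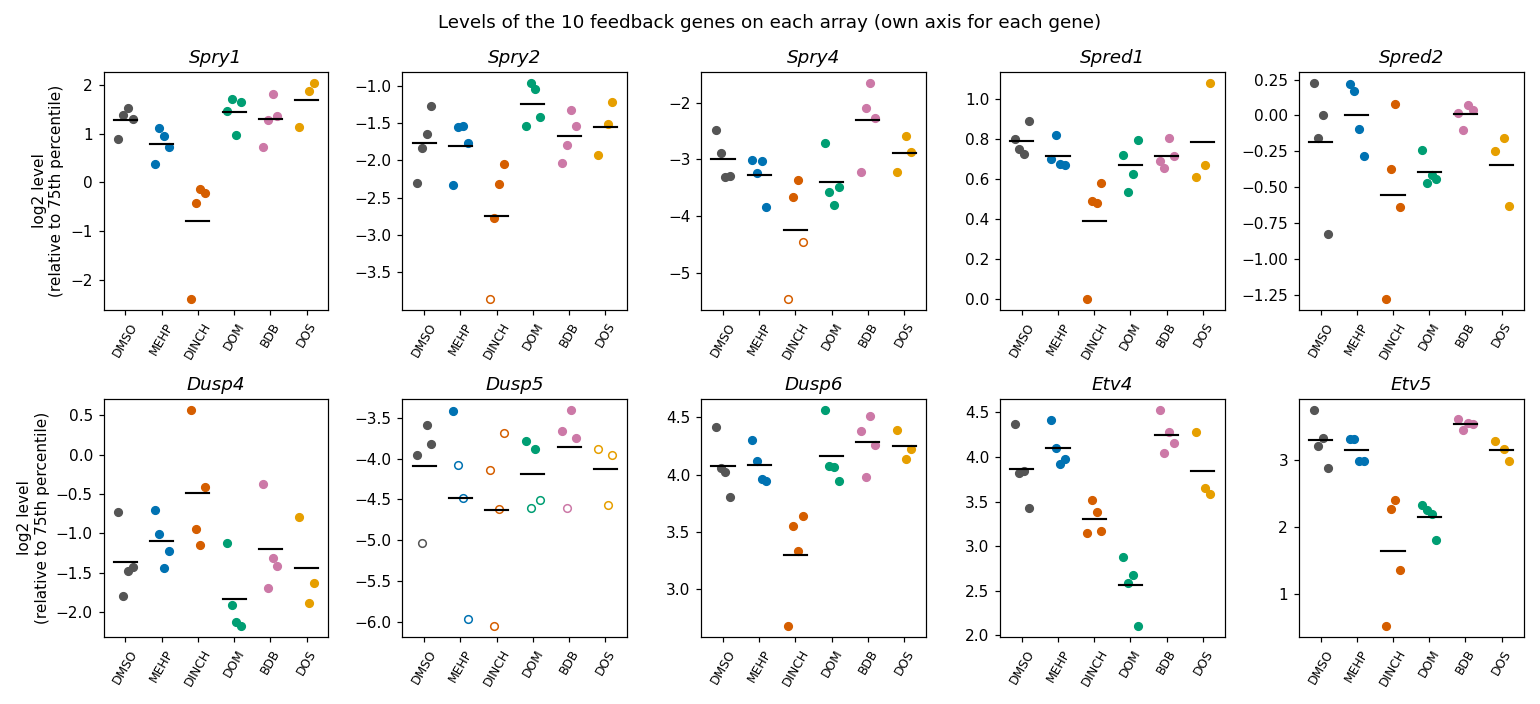
Log2 level relative to the 75th percentile of the array (vertical axis, own scale for each gene) on each array of the 6 groups, for the brightest probe of each gene. Each point is 1 array, an open point was not well above background, and the line is the group mean. The mean was lowest with DINCH for Spry1 and Etv5 and with DOM for Etv4.

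With DINCH, Spry1 and Etv5 fell, and 2 of the 9 tested members were called, both lower. Among all 11913 genes tested, 8.26% were called with DINCH in either direction and 4.02% were called lower. The mean was below that of DMSO for 9 of the 10 members, including Dusp5 at its measured signal, and their median difference was -0.67, against -0.001 over all genes tested. For 5 members (Spry1, Spry4, Spred1, Dusp6 and Etv5) every DINCH array was below every DMSO array, a pattern found for 12.4% of all genes tested. In bulk RNA, fewer cells that express a gene and less of its RNA per cell cannot be told apart.

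Spry1, a Sprouty protein that dampens receptor tyrosine kinase signalling, had log2 levels of 0.88, 1.39, 1.52 and 1.30 on DMSO replicates 1 to 4. On DINCH replicates 1 to 4 its levels were -2.38, -0.41, -0.13 and -0.21. All 4 DINCH arrays were below 0 and all 4 DMSO arrays were above it, and DINCH replicate 1 was far below the other 3. The difference was -2.05 ± 0.45 (SE, n = 4 and 4), a 4.15-fold fall with an adjusted p of 0.023 by limma. Without DINCH replicate 1 the difference was -1.52 ± 0.16 with an adjusted p of 0.00871.

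Etv5, one of the ETS factors, had levels of 3.74, 3.21, 3.33 and 2.88 on the DMSO arrays and of 0.53, 2.27, 2.39 and 1.36 on the DINCH arrays. The groups did not overlap, and replicates 1 and 4 of DINCH were lower than replicates 2 and 3. The difference was -1.65 ± 0.39 (SE), a 3.14-fold fall with an adjusted p of 0.0285 by limma, and -1.28 ± 0.29 with an adjusted p of 0.0398 without DINCH replicate 1. Both calls depended on single arrays. The adjusted p of Spry1 was 0.0579, 0.07 and 0.0534 without DMSO replicates 2, 3 and 4, and that of Etv5 was 0.0728, 0.0628 and 0.0771 without DMSO replicates 1, 2 and 3 and 0.0687 without DINCH replicate 4.

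The other Sprouty and Spred genes were lower in mean with DINCH and missed the threshold. Spry2 had levels of -2.30, -1.83, -1.65 and -1.28 with DMSO and -3.85, -2.78, -2.32 and -2.05 with DINCH, the first of which was not above background. The groups overlapped, since DINCH replicate 4 was above DMSO replicate 1, and the difference was -0.98 ± 0.37 with an adjusted p of 0.127. Spry4 had levels of -2.48, -2.89, -3.31 and -3.28 with DMSO and -5.46, -3.66, -3.37 and -4.46 with DINCH. Its groups did not overlap, 2 of its 4 DINCH arrays were not above background, and the difference was -1.25 ± 0.41 with an adjusted p of 0.0885. Spred1, a membrane-bound relative that acts on RAS through neurofibromin, ranged from 0.72 to 0.89 with DMSO and from -0.001 to 0.58 with DINCH, a difference of -0.40 ± 0.13 with an adjusted p of 0.0895. Spred2 ranged from -0.83 to 0.23 with DMSO and from -1.28 to 0.08 with DINCH, and its difference of -0.36 ± 0.30 had an adjusted p of 0.501.

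Among the phosphatases, Dusp6 and Dusp4 differed from DMSO in opposite directions, and neither passed the test. Dusp6, the cytoplasmic phosphatase of ERK, had levels of 4.42, 4.05, 4.02 and 3.80 with DMSO and 2.68, 3.55, 3.33 and 3.64 with DINCH. Every DINCH array was below every DMSO array, with replicate 4 of each group closest, and the difference was -0.77 ± 0.22 with an adjusted p of 0.0522. Dusp4, a nuclear phosphatase, had levels of -0.73, -1.80, -1.48 and -1.43 with DMSO and 0.57, -0.94, -1.15 and -0.41 with DINCH. The groups overlapped at DMSO replicate 1, and the difference of 0.88 ± 0.36 had an adjusted p of 0.164. Dusp4 was the member whose mean was higher with DINCH. Etv4, the other ETS factor, had levels of 4.37, 3.82, 3.84 and 3.43 with DMSO and 3.15, 3.52, 3.39 and 3.17 with DINCH, a difference of -0.56 ± 0.19 with an adjusted p of 0.0916.

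Samples with the same replicate number deviated together in this comparison, and with the replicate number as a block 4 members were called, Spry1 (-2.05, adjusted p = 0.0136), Spry2 (-0.98, 0.0168) and Etv5 (-1.65, 0.0381) lower and Dusp4 (0.88, 0.0223) higher. Replicate 1 was the lowest DINCH array for Spry1, Spry2, Spry4, Spred1, Spred2, Dusp6, Etv4 and Etv5 and the highest for Dusp4, and its 75th percentile of 204.6 was the lowest of all arrays. The part of this array's signal in the differences was not tested beyond leaving it out, which kept Spry1 and Etv5 called. Without it the differences of Spry2, Dusp4 and Spred2 were -0.62, 0.53 and -0.12, with adjusted p of 0.204, 0.295 and 0.85 by limma.

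**Figure D2:**
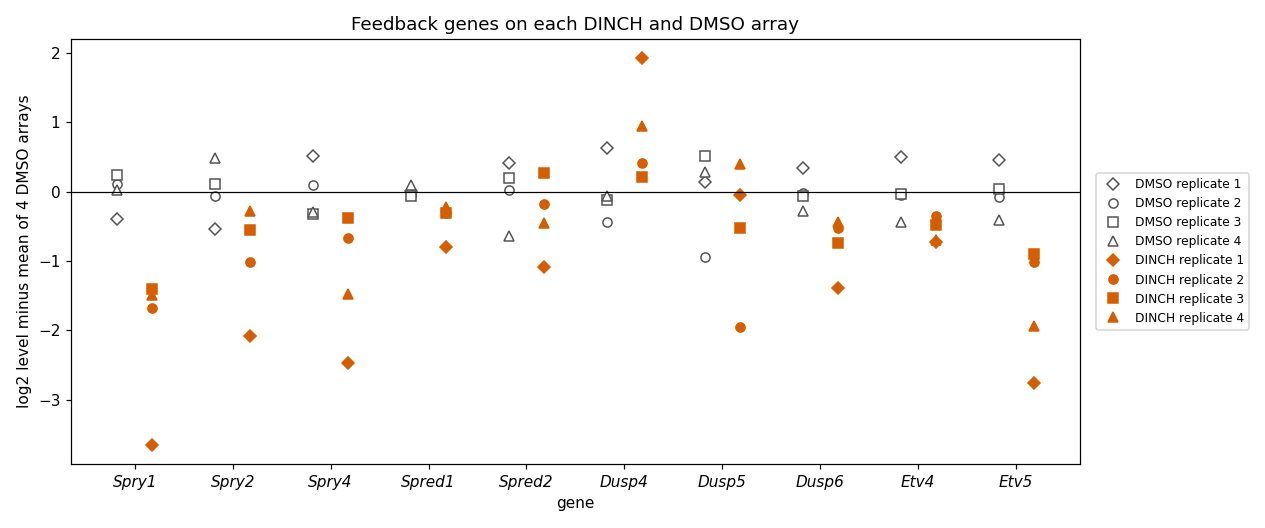
Log2 level of each gene minus the mean of its 4 DMSO arrays (vertical axis), for the DMSO arrays (open grey) and the DINCH arrays (filled), with 1 marker shape for each replicate number. DINCH replicate 1 (diamond) lay farthest from the DMSO mean for every gene shown except Dusp5.

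With DOM, both ETV genes fell and the Sprouty and DUSP genes did not pass the test. Of the 9 tested members 2 were called, both lower, while 20.5% of all 12005 genes tested were called with DOM and 10.6% were called lower. The median difference of the 10 members was -0.17 (-0.03 over all genes). For 2 members, Etv4 and Etv5, every DOM array was below every DMSO array, against 20.4% of all genes. The members' shares, 22.2% called among those tested and 2 of 10 without overlap, were near the 20.5% and the 20.4% of the whole array.

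Etv4 had levels of 2.88, 2.58, 2.67 and 2.11 with DOM, below the lowest DMSO level of 3.43 on each array. The difference was -1.30 ± 0.22 (SE, n = 4 and 4), a 2.47-fold fall with an adjusted p of 0.00249 by limma. The second probe of Etv4 had levels of 0.85, 0.40, 0.61 and 0.23 with DOM and 2.38, 1.59, 1.74 and 1.46 with DMSO, again without overlap, and gave -1.27 with an adjusted p of 0.00232. Etv5 had levels of 2.33, 2.25, 2.19 and 1.80 with DOM, all below the lowest DMSO level of 2.88, and its difference of -1.14 ± 0.19 was a 2.21-fold fall with an adjusted p of 0.00235. Both were called whichever array was left out.

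Among the other members with DOM, the difference of Spry2 was 0.52 ± 0.22 with an adjusted p of 0.101. The remaining differences were 0.17 for Spry1, -0.41 for Spry4, -0.12 for Spred1, -0.21 for Spred2, -0.48 for Dusp4 and 0.09 for Dusp6, with adjusted p from 0.224 to 0.716. Their 95% intervals all held 0, and that of Dusp6 ran from -0.29 to 0.47.

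With MEHP, 0 of the 9 tested members were called, while 1.69% of all genes tested were called. The smallest adjusted p was 0.246, for Spry1, whose levels of 0.37, 1.12, 0.95 and 0.73 overlapped those of DMSO and whose difference was -0.48 ± 0.19. It was the 1 member with an unadjusted p under 0.05. Dusp6 had a difference of 0.01 with a 95% interval from -0.31 to 0.33.

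With BDB, 0 of the 9 members were called, as were 0% of all genes tested by limma, although 3495 probes had an unadjusted p under 0.05. The means of 9 of the 10 members, including Dusp5 at its measured signal, were above that of DMSO. The median difference of the members was 0.20 (-0.03 over all genes tested). The levels of Spry4 were -3.23, -2.09, -1.64 and -2.26. Of its 4 BDB arrays 3 were above every DMSO array, and its difference of 0.68 ± 0.32 had an adjusted p of 0.366. No member had an unadjusted p under 0.05 on its brightest probe, and the second probe of Etv4 had a difference of 0.49 ± 0.21 with an adjusted p of 0.33 by limma.

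With DOS, 0 members were called and 0% of all genes tested by limma, with 1725 probes at an unadjusted p under 0.05. The median difference of the members was -0.02, the smallest adjusted p was 0.799 and 0 members had an unadjusted p under 0.05. Intervals remained wide, with that of Spry1 running from -0.13 to 0.95 around a difference of 0.41.

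**Figure D3:**
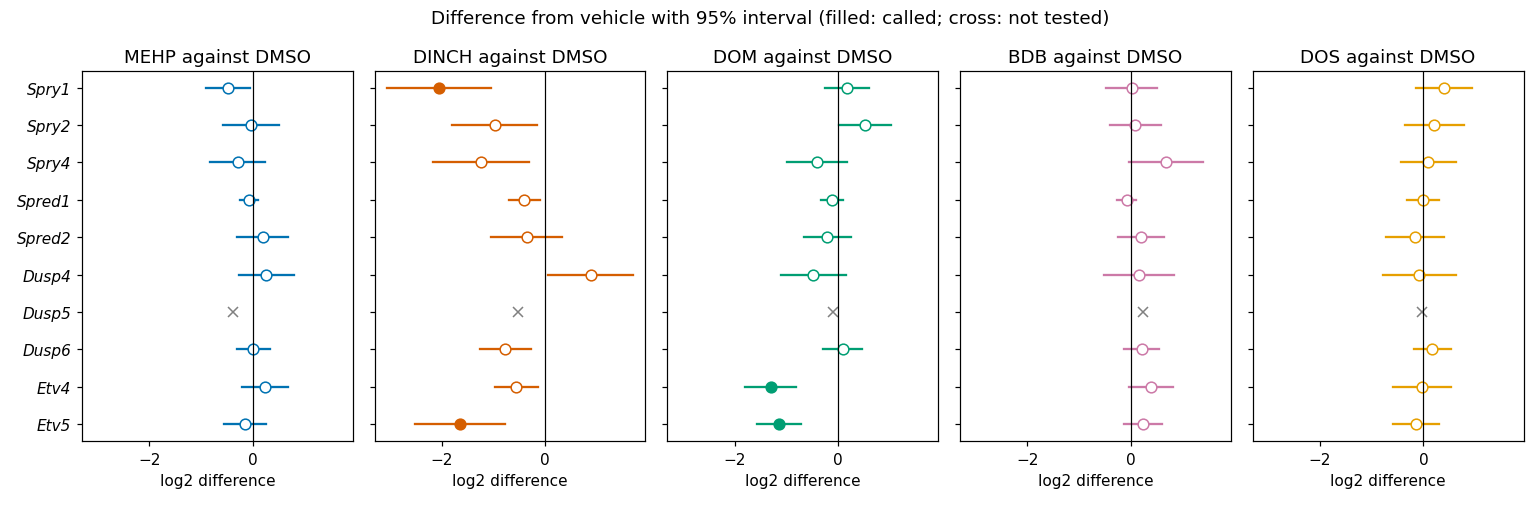
Log2 difference between each compound and DMSO (horizontal axis) with its 95% interval from limma for the 10 genes. Filled points were called, open points were tested and not called, and the cross is Dusp5, which was not tested. Spry1 and Etv5 were called with DINCH and Etv4 and Etv5 with DOM.

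A call with one compound and not with another does not show that the compounds differ. Therefore 4 pairs of compounds were compared directly at the same dose and time, with p-values adjusted over all tested probes within each pair. The share of all genes whose arrays did not overlap was not counted for these pairs, so such patterns only describe single members. DOM and DOS are dioctyl esters that differ by the double bond of the acid, which maleate has and succinate lacks, and both lay in the same slide rows. Of the 9 tested members 2 were called between them, with 15.2% of all genes. Etv4 had levels of 4.28, 3.65 and 3.58 with DOS, above all 4 DOM arrays, and was lower with DOM by -1.28 ± 0.22 (SE, adjusted p = 0.00789). Etv5 had levels of 3.28, 3.16 and 2.99 with DOS, also above all 4 DOM arrays, and was lower with DOM by -1.001 ± 0.151 (adjusted p = 0.00455). The other 7 tested members were not called, with adjusted p from 0.207 for Spry4 to 0.827 for Spred2. For Spry1, Spry2, Spry4 and Dusp4 the 95% intervals still allowed a difference of over 1.5-fold, from -1.10 to 0.09 for Spry4 and from -0.81 to 0.34 for Spry1. Those of Spred1 (-0.44 to 0.21), Spred2 (-0.37 to 0.27) and Dusp6 (-0.46 to 0.28) did not.

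Between MEHP and DINCH, which lay in the same slide rows, 1 member was called and 2.4% of all genes. Etv4, at 4.41, 4.10, 3.92 and 3.97 with MEHP, was above every DINCH array by 0.80 ± 0.13 (adjusted p = 0.0218). Spry1, Spred1, Dusp6 and Etv5 were also higher on every MEHP array than on every DINCH array, with differences of 1.575, 0.329, 0.78 and 1.503 and adjusted p of 0.102, 0.214, 0.0747 and 0.064. They were not called, and how common such a separation was among all genes was not counted. Without DINCH replicate 1 the called member was Spry1 in place of Etv4. The call of Etv4 was also lost without MEHP replicate 1, 2 or 4 or DINCH replicate 4.

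Between DINCH and DOM, 5 members were called and 23.3% of all genes. Lower with DINCH were Spry1 by -2.23 ± 0.45 (adjusted p = 0.00456), Spry2 by -1.51 ± 0.34 (0.00829) and Dusp6 by -0.86 ± 0.22 (0.0144). Higher with DINCH were Dusp4 by 1.35 ± 0.37 (0.0189) and Etv4 by 0.75 ± 0.17 (0.00885). No DINCH array overlapped a DOM array for Spry1, Spry2, Dusp6 or Etv4, whereas those of Dusp4 did, at DOM replicate 1 (-1.12) and DINCH replicate 3 (-1.15). The adjusted p of Dusp4 was 0.052 without DOM replicate 2 and 0.0522 without DOM replicate 4, and the difference of Spry2 was -0.66 with normexp background correction. Etv5, called against DMSO with both, differed by -0.51 between them, with a 95% interval from -1.32 to 0.30 (adjusted p = 0.305).

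Between MEHP and DOM, 4 members were called and 19.5% of all genes. Etv4 was higher with MEHP by 1.54 ± 0.17 (adjusted p = 0.000329) and Etv5 by 0.997 ± 0.139 (0.000858), without overlap. Dusp4 was higher with MEHP by 0.74 ± 0.25 (0.0464) and Spry1 lower by -0.65 ± 0.20 (0.0347), and for both the groups overlapped. The calls of Dusp4 and Spry1 were both lost without MEHP replicate 1, MEHP replicate 4, DOM replicate 2 or DOM replicate 4, which left 2 members called. The call of Dusp4 was also lost without MEHP replicate 2 or DOM replicate 3, and that of Spry1 without DOM replicate 1. Same-numbered samples deviated together in this pair, and with the replicate number as a block the same 4 members were called. The adjusted p by limma was then 0.00342 for Dusp4 and 0.0322 for Spry1. Spry2 (-0.56, 0.0049) stayed under the 1.5-fold threshold.

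Over the 23 arrays, the members did not vary as 1 block. Spry1 and Spry2 correlated with a Pearson r of 0.897, and of 0.833 after the mean of each group was taken out. Spry1 and Spred1 (0.827), Spry4 and Etv5 (0.82), Spry1 and Dusp6 (0.796), Spred2 and Etv5 (0.781) and Etv4 and Etv5 (0.769) were also high. Dusp6 and Etv5 had an r of 0.745. After the group means were taken out, r was 0.731 for Spry1 and Spred1, 0.385 for Spry1 and Dusp6 and 0.878 for Spred2 and Etv5. Dusp4 had an r of -0.784 with Spry1 and of -0.814 with Spry2, of -0.19 with Spred2 and -0.275 with Etv5, and of 0.336 with Etv4 and 0.194 with Dusp5. Spry1 and Etv4 had an r of 0.0538. These values describe 23 arrays that share treatments, slides and scaling.

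The genes whose pattern was most like that of Dusp6, by Pearson r over the 23 arrays among 11200 other genes above background on all of them, were Egr1 (0.925) and Fosl1 (0.903), both transcription factors induced by ERK signalling, Gpr149 (0.845), Ier2 (0.844), an immediate early gene, and Slc7a11 (0.829), the cystine transporter. Their differences with DINCH ran from -1.01 for Gpr149 to -1.89 for Fosl1, which the choice of genes by likeness to Dusp6 on these same arrays largely fixes.

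Other genes of the pathway were taken from 3 lists chosen with earlier results of these data known. Of 15 other ERK outputs and brakes, 14 were tested, and with DINCH 7 were called, all lower, against 4.02% of all genes called lower. The immediate early transcription factors Fosl1 (-1.89, adjusted p = 0.0137), Fos (-1.81, 0.00363) and Egr1 (-1.77, 0.00895) fell the most, and Fos was above background on 1 of 4 DINCH arrays. Myc (-0.74, adjusted p = 0.0463), the EGFR inhibitor Errfi1 (-0.61, 0.0383), the EGFR ligand Hbegf (-0.60, 0.043) and the receptor inhibitor Lrig1, on a probe that was not its brightest (-0.62), also fell. The list's median was -0.32. Leaving out any 1 array gave 3 to 5 called genes in place of 7, and without DINCH replicate 1 those called were Egr1, Fos and Fosl1.

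With DOM, 1 of these 14 genes (7.14%) was called, against 20.5% of all genes and 10.6% called lower. It was the cell cycle gene Ccnd1, whose difference of -1.32 had an adjusted p of 0.00445 by limma, and 1 or 2 were called when 1 array was left out. Between DOM and DOS, where 15.2% of all genes were called, 2 of the 14 were. Ccnd1 was lower with DOM by -1.39 (0.00974) and the FGF receptor inhibitor Il17rd was higher by 0.76 (0.0159). With MEHP, BDB and DOS, 0 of the 14 were called, and their medians were 0.02, 0.07 and -0.04.

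Of the 10 family relatives, among them Spred3, Dusp1 and Etv1, 8 were tested, and 0 were called with any compound against DMSO, while 8.26% of all genes were called with DINCH and 20.5% with DOM. Their median was -0.14 with DINCH and -0.30 with DOM. Between MEHP and DOM 3 of the 8 were called, against 19.5% of all genes, and these were the phosphatases Dusp8 (0.65, adjusted p = 0.02), Dusp9 (0.59, 0.0078) and Dusp10 (0.77, 0.0442), all higher with MEHP.

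The list for the chain from receptors to ERK held 28 genes, and all were tested. It included Mras, Mapk12 and Egfr, which the paper names in its account of genes raised by DINCH. That account rests on these same arrays, with qPCR. Mapk12 is a p38 kinase and is not itself a step of that chain. With DINCH, 3 were called, all higher. They were the RAS relative Mras (0.89, adjusted p = 0.00914), the p38 kinase Mapk12 (0.79, 0.00937) and, on 1 of its probes, the receptor Egfr (0.60). Their rise was known beforehand from these data, so the count cannot be weighed against the 4.25% of all genes called higher. No other gene of the list was called with DINCH. The brightest probe of Egfr gave 0.36 with an adjusted p of 0.111. Mras and Mapk12 were called whichever array was left out, whereas Egfr was called in 1 of these 8 fits, that without DINCH replicate 2. With DOM, 4 of the 28 (14.3%) were called, all higher. Among all genes, 20.5% were called in either direction, a larger share, and 9.9% were called higher. The 4 were the PDGF receptors Pdgfrb (1.56, 0.000375) and Pdgfra (0.86, 0.00383) and the adaptors Frs2 (1.26, 0.00021) and Gab1 (0.70, 0.0217). With MEHP, 1 of the 28 (3.57%), Mapk12, was called (0.63, 0.0228), with 1.69% of all genes, and with BDB and DOS none was. Between DOM and DOS, 2 of the 28 (7.14%) were called, against 15.2% of all genes. Frs2 (1.18, 0.0026) and Pdgfrb (1.07, 0.0129) were higher with DOM.

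**Figure D4:**
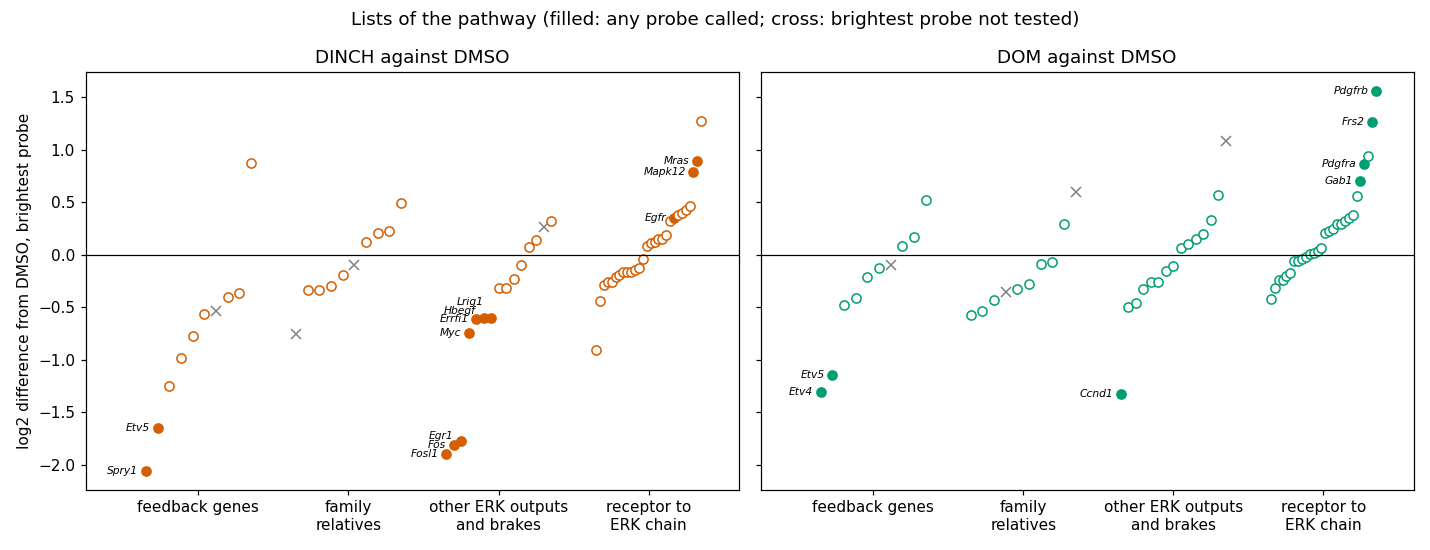
Log2 difference from DMSO (vertical axis) of each gene of the 4 lists with DINCH (left) and DOM (right), ordered by size within a list. Filled points are genes with a called probe, named beside them, and crosses are genes whose brightest probe was not tested. With DINCH the called ERK outputs lay below 0 and the called genes of the chain list, which includes the p38 kinase Mapk12, above it.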

How the data were processed

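The authors hybridized Cy3-labelled cRNA of each sample to its own 1-colour Agilent array, and Agilent Feature Extraction 11.5.1.1 subtracted background and marked outlier spots. The deposited intensity values were linear and unscaled, and DOS replicates 1, 3 and 4 were used. A log2 table that the authors deposited beside them, scaled by the 75th percentile and centred per probe, served as an alternative. Here, processed intensities under 1 were set to 1, log2 was taken and the 75th percentile of an array's non-control spots was subtracted. Outlier spots were dropped on the array where they were marked, and the spots of a probe were averaged, which gave 55681 probes. Probes were named by matching RefSeq accessions to a table of gene symbols (26582 probes, 20145 genes). Each comparison was fitted on its own arrays with limma 3.58.1 (lmFit, eBayes) in R 4.3.3, with Benjamini-Hochberg adjustment over all probes for which at least 1 group had no array near background or under its 20th percentile. A gene's value was that of its brightest probe, and a gene was called if any probe passed. The number of arrays limits the precision. The fit was tested on simulated data.

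The 10 members, the 3 pathway lists and the markers were chosen with earlier results of these data known. All members were named, and from each list at most 3 genes that rose and 3 that fell in a comparison, plus Egfr, Mras and Mapk12, a limit passed for the outputs with DINCH, where all 7 called genes are named, and the chain with DOM, where all 4 are, after their values were seen. Same-numbered samples deviated together, every correlation over 0.1, for DINCH (0.169 to 0.491), BDB (0.241 to 0.432) and DOS (0.192 to 0.448) against DMSO and for MEHP against DOM (0.184 to 0.601), which rests on the data. Alternatives were another normalization or background correction, other filters, blocks for slide, slide row or replicate number, 1 fit of all groups, outlier spots kept, the brightest probe alone, a variance trend and each array left out. Promoters came from a RefSeq table on GRCm38.p6, which was used for sequences only.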

Additional observations from a re-analysis of the deposited data

Results flagged for a closer look

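Spry1 on DINCH replicate 1 stood apart from the other 3 DINCH arrays, with a gap of 0.875 of the group's range against a critical value of 0.829. It was 1 of 50 groups of 4 arrays examined, and chance marks about 5% of such groups.

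Effects differed between compounds in direct tests of the difference by limma, given here as log2 differences of the first compound minus the second. Between DOM and DOS these were Etv4 (-1.279) and Etv5 (-1.001). Between MEHP and DINCH it was Etv4 (0.798). Between DINCH and DOM they were Spry1 (-2.226), Spry2 (-1.508), Dusp4 (1.354), Dusp6 (-0.861) and Etv4 (0.745). Between MEHP and DOM they were Spry1 (-0.652), Dusp4 (0.742), Etv4 (1.543) and Etv5 (0.997).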

How the results depend on the processing

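The calls of Etv4 and Etv5 with DOM against DMSO were kept under every alternative run, and with MEHP, BDB and DOS against DMSO the count stayed at 0. With DINCH against DMSO, the count of 2 called members became 0 without a filter on dim probes or with detection on 1 array, 4 with slide or replicate number as a block and 5 with all groups in 1 fit. Without 1 array it ran from 0 to 2, with 0 without DMSO replicate 2 or 3 and 1 without DMSO replicate 1 or DINCH replicate 4. Between DOM and DOS the count of 2 became 0 without a filter. Between MEHP and DINCH the count of 1 became 4 with normexp background correction, with all groups in 1 fit or with a variance trend, and 0 without a filter, with detection on 1 array, or with slide or replicate number as a block, and ran from 0 to 2 without 1 array. Between DINCH and DOM the count of 5 became 2 without a filter. Between MEHP and DOM the count of 4 became 2 without a filter, with detection on 1 array or with all groups in 1 fit, and ran from 2 to 4 without 1 array. Without a filter, or with detection on 1 array, more probes enter the adjustment by construction, and the cause of the other shifts was not tested. The replicate block changed the count in no other comparison, and it was used beside the result only where same-numbered samples deviated together. Of 307 single called values under alternatives, 0 reversed, 258 kept the call and 49 lost it. The 7 other ERK outputs called with DINCH became 1 without a filter, 3 with detection on 1 array and 4 with quantile normalization, and over the other settings ran from 5 to 7. For the chain list with DINCH, the count of 3 ran from 0 to 4 over the settings that kept all arrays. Spots near background, as for Dusp5 and Spry4 with DINCH, limit what could be measured.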
